A study of Homo sapiens with 4 samples.

Results

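The initiation and elongation factors of cytosolic translation were followed at the transcript level in melanoma cells treated with an siRNA against ZIC5. Genes were taken by symbol, as all those whose name begins with EIF1 to EIF6, EEF1 or EEF2 on probe sets that name a single gene, including the EIF2AK kinases and the EIF4EBP repressors and leaving out pseudogenes. This gave 62 genes on 152 probe sets. Of these, 60 had a mean log2 intensity of at least 5 over the 4 arrays, among the 13794 of 19775 genes that passed that level. Each gene was read from its probe set with the highest mean. Among the 60 were 57 protein-coding genes and 3 non-coding RNAs that carry the name of a neighbouring factor. Just inside the level lay EIF2AK3-AS1 and EIF3C at a mean log2 of 5.01 and 5.59, and outside it lay EIF2AK3-DT and the lone single-gene probe set of EIF4A2 at 4.05 and 2.64. In 2 of the 60 the mean of 1 line was under 5, so they passed through the other line. A further 16 probe sets list a factor beside other genes, such as snoRNAs, microRNAs or a near-identical copy. They name no single gene and were not used, so helicase EIF4A1 and the elongation factors EEF1B2 and EEF1G are not analysed here. The helicase EIF4A2 is also not analysed. Its single-gene probe set was low, but a shared probe set that lists it had intensities of 3663 to 5696 on the 4 arrays. EIF1AY, the Y-linked paralog of EIF1AX, is counted among the 60, and its values are not printed.

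The study compared A375 cells given an siRNA for ZIC5 with A375 cells given a negative control siRNA, and SK-MEL-28 cells given an siRNA for ZIC5 with SK-MEL-28 cells given a negative control siRNA. Both are established human melanoma lines, and ZIC5 is a zinc-finger transcription factor. RNA was collected 48 h after transfection and 100 ng of it was labelled for an Affymetrix expression array, with 1 array per group. The labels name no siRNA sequence and give no second siRNA, so each comparison rests on the siRNA as labelled. Differences are log2 intensities with ZIC5 siRNA minus those with control siRNA in the same line, where 1 log2 unit is 2-fold. Where a pair of siRNA differences is given without names, A375 is followed by SK-MEL-28.

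Translation starts when eIF2 brings the initiator tRNA to the small ribosomal subunit. With eIF1, eIF1A, eIF3 and eIF5 bound, the subunit scans for a start codon. The cap complex eIF4F, built of the cap binder eIF4E, the helicase eIF4A and the scaffold eIF4G, brings the mRNA, and the 4E-BP repressors hold eIF4E when mTORC1 is off. Kinases that phosphorylate eIF2 alpha block its recharging by eIF2B, which lowers bulk translation and favours ATF4. During elongation eEF1A delivers aminoacyl-tRNAs, eEF2 moves the ribosome and eIF5A, the only protein known to carry hypusine, helps it past difficult peptide bonds.

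Many mRNAs of the translation machinery begin with a run of pyrimidines at the cap, the terminal oligopyrimidine element, which places their translation under mTORC1. RefSeq windows (GRCh38.p14) from 250 bases before to 50 bases after the annotated start held sequence for 47 of the 60 genes, in 62 windows. A start of C followed by 4 bases that are each C or T stood in at least 1 window of 10 of the 47 genes (21.3%), against 7.04% of 11046 analysed genes with a window and 4.07% of all 35116 windows. These starts are a feature of sequence that the choice by name did not use. The 30 bases around each of the 10 starts are printed below. They were picked by that start, so their likeness in it follows from the choice. The other 37 genes with a window lack it. The capitals mark the run of C and T from the annotated start.
EEF1A1 (chr6:73521015-73521044, minus strand): gccgtgaacgttCTTTTTCgcaacgggttt
EEF2 (chr19:3985446-3985475, minus strand): gacgtcagcgttCTCTTCCgccgtcgtcgc
EIF2A (chr3:150546775-150546804, plus strand): cccgagcggtttCTCTTTCCgggacaacat
EIF2D (chr1:206612448-206612477, minus strand): ttccagccgggcCCTTTTCgcggccgggcc
EIF2S3 (chrX:24054944-24054973, plus strand): gtgatttccttcCTCTTTTggcaacatggc
EIF3D (chr22:36529149-36529178, minus strand): cgcgcatgtttcCTCTTTTCCTggtttctc
EIF3F (chr11:7987325-7987354, plus strand): cgcttccgcctcCTTCTTTCTCgacaagat
EIF3K (chr19:38619176-38619205, plus strand): cgtttccaccacCTCTTCCTgttcccgtcc
EIF3M (chr11:32583819-32583848, plus strand): cggcccagttccCTTTTCCggtcggcgtgg
EIF4B (chr12:53006444-53006473, plus strand): cctcatccgggtCTTTTgcgttctctttcc
The runs cover EEF1A1 and EEF2, the elongation factors that deliver tRNA and move the ribosome, 4 eIF3 subunits, 3 factors that handle initiator tRNA and the helicase cofactor EIF4B. With ZIC5 siRNA these 10 transcripts had a median difference of -0.03 in A375 and 0.06 in SK-MEL-28, against -0.01 and -0.04 for the other 37 genes with a window. Their range, -0.54 to 0.40 in A375 and -0.39 to 0.29 in SK-MEL-28, lay inside that of the other genes, -1.48 to 1.30 and -0.95 to 0.83. An annotated start can differ from the start used in these cells.

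ZIC5 was listed at an intensity of 14.1 with ZIC5 siRNA and 16.8 with control siRNA in A375, and at 15.5 and 21.4 in SK-MEL-28, all under the level of 32, so the knockdown cannot be read here. The melanocytic list was above the level for 6 of 6 measured genes in the mean, but the lines differed: its summed intensity was 2308 and 1744 on the A375 arrays with ZIC5 and control siRNA and 42025 and 45296 on the SK-MEL-28 arrays. PMEL and MLANA, defining melanosome genes, lay near or under the level in A375, at 35.9 and 17.0 with ZIC5 siRNA and 32.4 and 13.9 with control siRNA. Of other cell types, PTPRC, CDH5 and CDH1 were under the level in the mean, while KRT14, KRT5, HBB and PECAM1 were at it. KRT14 had 320 and 358 in A375 with ZIC5 and control siRNA, and 42.5 and 32.1 in SK-MEL-28. On the SK-MEL-28 arrays alone CDH1 was above the level, at 56.0 and 59.2. The summed fibroblast list was 266 and 456 in A375 with ZIC5 and control siRNA and 768 and 1130.3 on the matching SK-MEL-28 arrays. Equal RNA amounts were labelled, so fewer cells and less RNA per cell cannot be told apart.

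With ZIC5 siRNA most initiation and elongation factor transcripts stayed near their control level, and a few stood out. EIF5A was lower and EIF1B higher in both lines, EIF2S2 was lower in both, and the kinases EIF2AK4 and EEF2K, the scanning factor EIF1AX and the helicase cofactor EIF4H were lower in both by a smaller amount. A difference of at least 0.5 in size was seen in 15 members (25%) in A375, against 30.9% of all genes, and in 8 (13.3%) in SK-MEL-28, against 14.5%. In A375, 1 of 60 members was at least 2-fold higher (background 3.89% of all genes) and 1 was at least 2-fold lower (background 5.05%). In SK-MEL-28, 0 members were at least 2-fold higher (background 0.776%) and 1 was at least 2-fold lower (background 2.12%). Counted either way, 2 members passed in A375 (background 8.95%) and 1 in SK-MEL-28 (background 2.89%). The shares by direction, at most 1.67% of members, are under or near the background and are no result about the factors as a group. The members' median difference, 0.00078 for A375 and 0.02 for SK-MEL-28, stood beside -0.01 and 0.0015 over all genes. Members had an SD of 0.44 for A375 and 0.36 for SK-MEL-28, against 0.60 and 0.39 over all genes. In 47 of 60 members (78.3%) the sign was the same in both lines, 25 higher and 22 lower, against 64.0% of all genes (31.5% higher in both and 32.5% lower in both). The lines had separate control arrays. Over the arrays the median log2 intensity was 10.2 to 10.6 for members, against 7.77 to 7.81 for all genes. The SD and the shares were not compared with genes of like level.

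**Figure D1:**
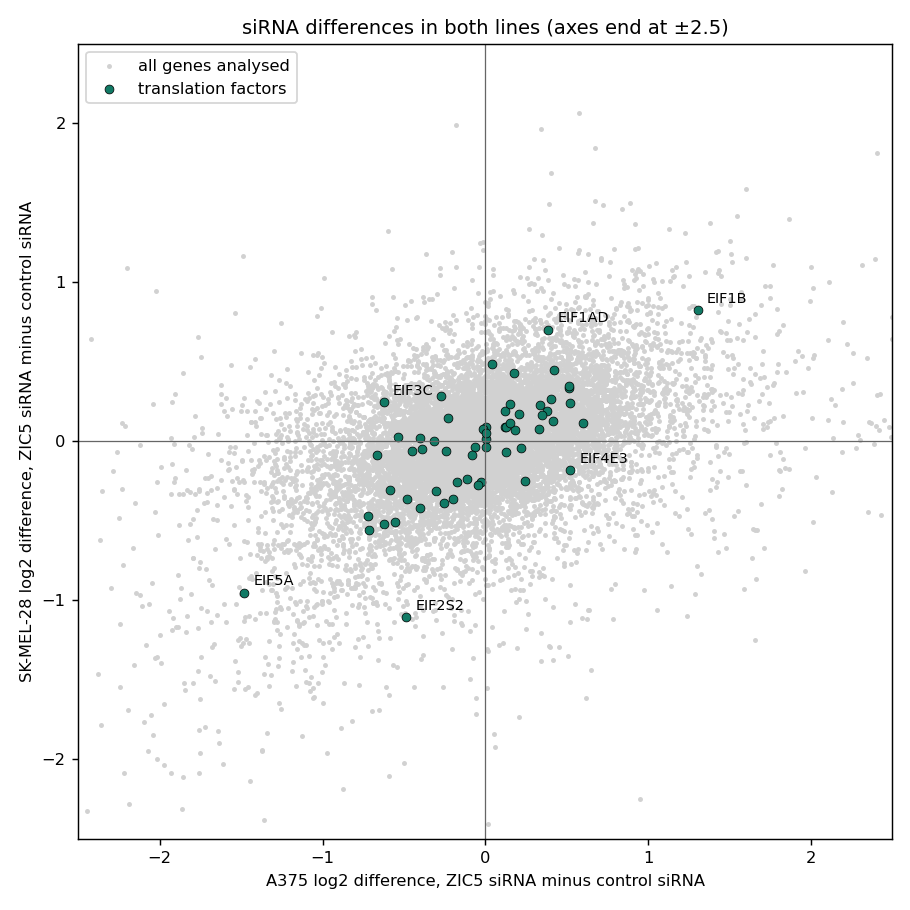
Each point is a gene, with its log2 difference (ZIC5 siRNA minus control siRNA) in A375 on the x axis and in SK-MEL-28 on the y axis; green points are 59 translation factors and grey points all genes analysed, and genes beyond 2.5 on an axis are not shown. EIF5A lies at -1.48 and -0.95 and EIF1B at 1.30 and 0.83, while most factors lie within 0.5 of 0 on both axes.

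EIF5A, the hypusine-bearing elongation factor, had the greatest negative difference among the factors in A375. Its intensity was 2391 with ZIC5 siRNA and 6678 with control siRNA in A375, a 2.79-fold lower value. In SK-MEL-28 it was 599 with ZIC5 siRNA and 1158 with control siRNA, 1.93-fold lower. Both ZIC5 siRNA arrays were therefore below the control array of their own line, and the SK-MEL-28 control array was also below both A375 arrays. All 3 EIF5A probe sets were lower in both lines, with -1.48, -1.43 and -1.08 in A375, while SK-MEL-28 gave -0.95, -0.48 and -0.86. Its paralog EIF5A2, which carries the same modification and is made in fewer normal tissues, went the other way. EIF5A2 intensity was 149 with ZIC5 siRNA and 104 with control siRNA in A375, while SK-MEL-28 had 1541 and 1211. These are differences of 0.52 and 0.35, and all 3 of its probe sets were higher in both lines (0.10 to 0.73 in A375, 0.35 to 0.57 in SK-MEL-28). Of the enzymes that make hypusine, DHPS differed by -0.88 and -0.47 in A375 and SK-MEL-28 and DOHH by 0.41 and 0.42.

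**Figure D2:**
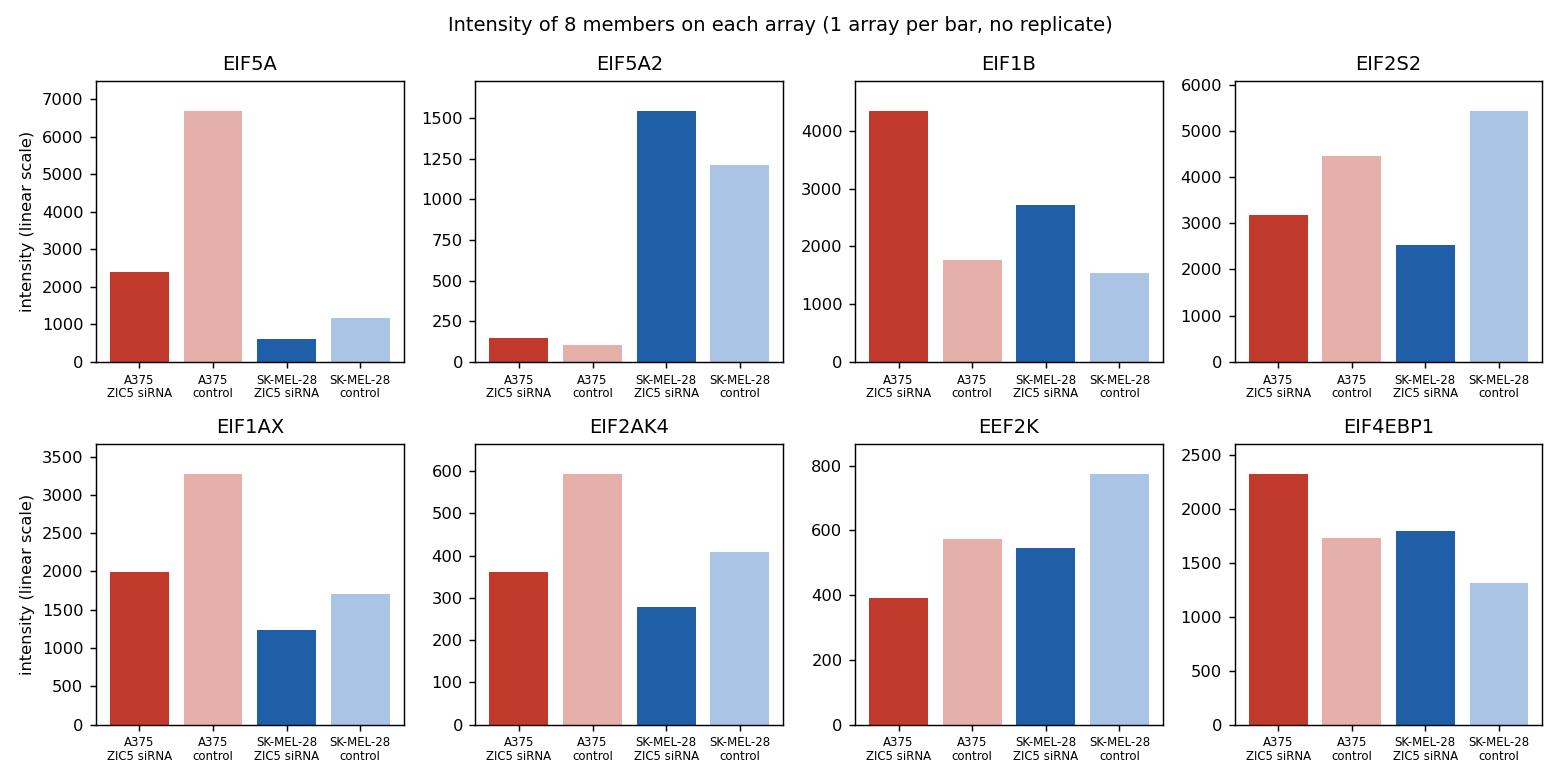
Bars give the deposited intensity (linear scale, from 0) of 8 members on each of the 4 arrays, with ZIC5 siRNA left of control siRNA within each line and 1 array per bar. EIF5A is highest on the A375 control array at 6678, and EIF5A2 is above 1000 only on the SK-MEL-28 arrays.

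Among the factors of start codon scanning, EIF1B had the greatest positive difference of all members. EIF1B is a close paralog of EIF1, the factor that guards against wrong start codons. Its intensity was 4341 with ZIC5 siRNA and 1757 with control siRNA in A375, 2.47-fold higher, and 2716 and 1530.1 in SK-MEL-28, 1.78-fold higher. Both ZIC5 siRNA arrays lay above both control arrays, on the 1 EIF1B probe set at the level. EIF1B was picked by the size of these differences, and the share of all genes with that order was not counted. EIF1 itself differed by 0.33 and 0.08, with 6 of its 7 probe sets higher in each line. EIF1AX, which works with EIF1 at the start codon, had 1989.8 with ZIC5 siRNA and 3275 with control siRNA in A375, while SK-MEL-28 had 1233 and 1711, differences of -0.72 and -0.47. All 4 EIF1AX probe sets were lower in A375 but only 2 of 4 in SK-MEL-28, where the other two differed by 0.36 and 0.49. EIF1AD, named for its eIF1A-like domain, had 508 and 389 in A375 with ZIC5 and control siRNA, while SK-MEL-28 had 235 and 144, higher by 0.39 and 0.70. Its second, dimmer probe set gave 0.50 and 0.24. The antisense RNA EIF1B-AS1 differed by 0.09 in SK-MEL-28 and by less in A375.

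The 3 subunits of eIF2 differed in direction. EIF2S2, the beta subunit, had intensities of 3188 with ZIC5 siRNA and 4463 with control siRNA in A375, while SK-MEL-28 had 2520.1 and 5424. It was thus lower by a difference of -0.49 in A375 and -1.11 in SK-MEL-28, where it was the 1 member past 2-fold. Its second, dimmer probe set gave -1.21 and -0.67, so the sign held on both and which line had the greater size did not. EIF2S1, the alpha subunit that the stress kinases phosphorylate, differed by -0.04 and -0.27 on its brightest probe set, while its other probe sets gave -0.51 and -0.53 for A375, with -0.39 and -0.31 for SK-MEL-28. EIF2S3, the gamma subunit that holds GTP and the tRNA, had 4395 with ZIC5 siRNA and 3322 with control siRNA in A375, while SK-MEL-28 had 2123 and 1767, higher by 0.40 and 0.27. Of the factors outside the eIF2 complex that can deliver tRNA, EIF2A differed by -0.30 and -0.31 and EIF2D by -0.54 and 0.03. The 5 subunits of eIF2B, the exchange factor that recharges eIF2, lay near their control level on their brightest probe sets. Their differences ran from -0.09 to 0.12 in A375 and from -0.26 to 0.09 in SK-MEL-28, with EIF2B5, the catalytic subunit, at the low end in SK-MEL-28. The second, dimmer EIF2B5 probe set gave -0.77 for A375 and 0.32 for SK-MEL-28, where its sign was the opposite one.

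Of the 4 eIF2 alpha kinases, 3 were lower in both lines, where 32.5% of all genes were, with no test of the group. EIF2AK4 encodes GCN2, the sensor of uncharged tRNA, and had 361 with ZIC5 siRNA and 594 with control siRNA in A375, while SK-MEL-28 had 278 and 409. Its differences were -0.72 and -0.56. EIF2AK1 (HRI, which senses haem) differed by -0.67 and -0.08 on its highest probe set and by -0.08 and -0.34 on its other one. EIF2AK2 (PKR, which senses double-stranded RNA) differed by -0.17 and -0.26 on its highest probe set and by -1.58 and -0.29 on its other one. EIF2AK3, the endoplasmic reticulum kinase PERK, had 354 and 344 in A375 with ZIC5 and control siRNA, while SK-MEL-28 had 1136 and 810.5, a difference of 0.04 and 0.49. The antisense RNA EIF2AK3-AS1, near the low end of the scale, differed by -0.20 and -0.36. Among genes known to act downstream of these kinases, the transcription factor ATF4 was higher by 1.0 and 1.10 and its target DDIT3 by 2.8 and 0.72, while the eIF2 phosphatase subunit PPP1R15A (GADD34) differed by 1.59 and -0.01. Kinase transcripts do not report kinase activity, which was not measured.

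The 13 eIF3 genes, subunits of the scaffold that bridges the small ribosomal subunit and the cap complex, ran between -0.62 and 0.52 in A375 and between -0.39 and 0.43 in SK-MEL-28. Of these, 9 were higher in both lines, where 31.5% of all genes were, and 1, EIF3F, was lower in both (-0.25 and -0.39). No test was made of the group, and the group had a median of 0.15 for A375 and 0.12 for SK-MEL-28. EIF3H was at the high end in A375 at 0.52 (0.24 in SK-MEL-28) and EIF3E in SK-MEL-28 at 0.43 (0.18 in A375). EIF3G, which contacts the scanning machinery, differed by 0.41 and 0.13, and EIF3M by 0.33 and 0.23. EIF3C was read from a probe set near the low end of the scale, at 42.1 with ZIC5 siRNA and 64.9 with control siRNA in A375, while SK-MEL-28 had 48.0 and 40.5. Its differences there were -0.62 and 0.25, while 3 bright probe sets shared by EIF3C and its near-identical copy EIF3CL, which were not used for any gene, gave -0.46 to -0.37 in A375 and -0.38 to -0.34 in SK-MEL-28. The second EIF3H probe set, dimmer by far, gave -0.49 in A375, and the non-coding EIF3J-DT differed by -0.39 and -0.05.

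**Figure D3:**
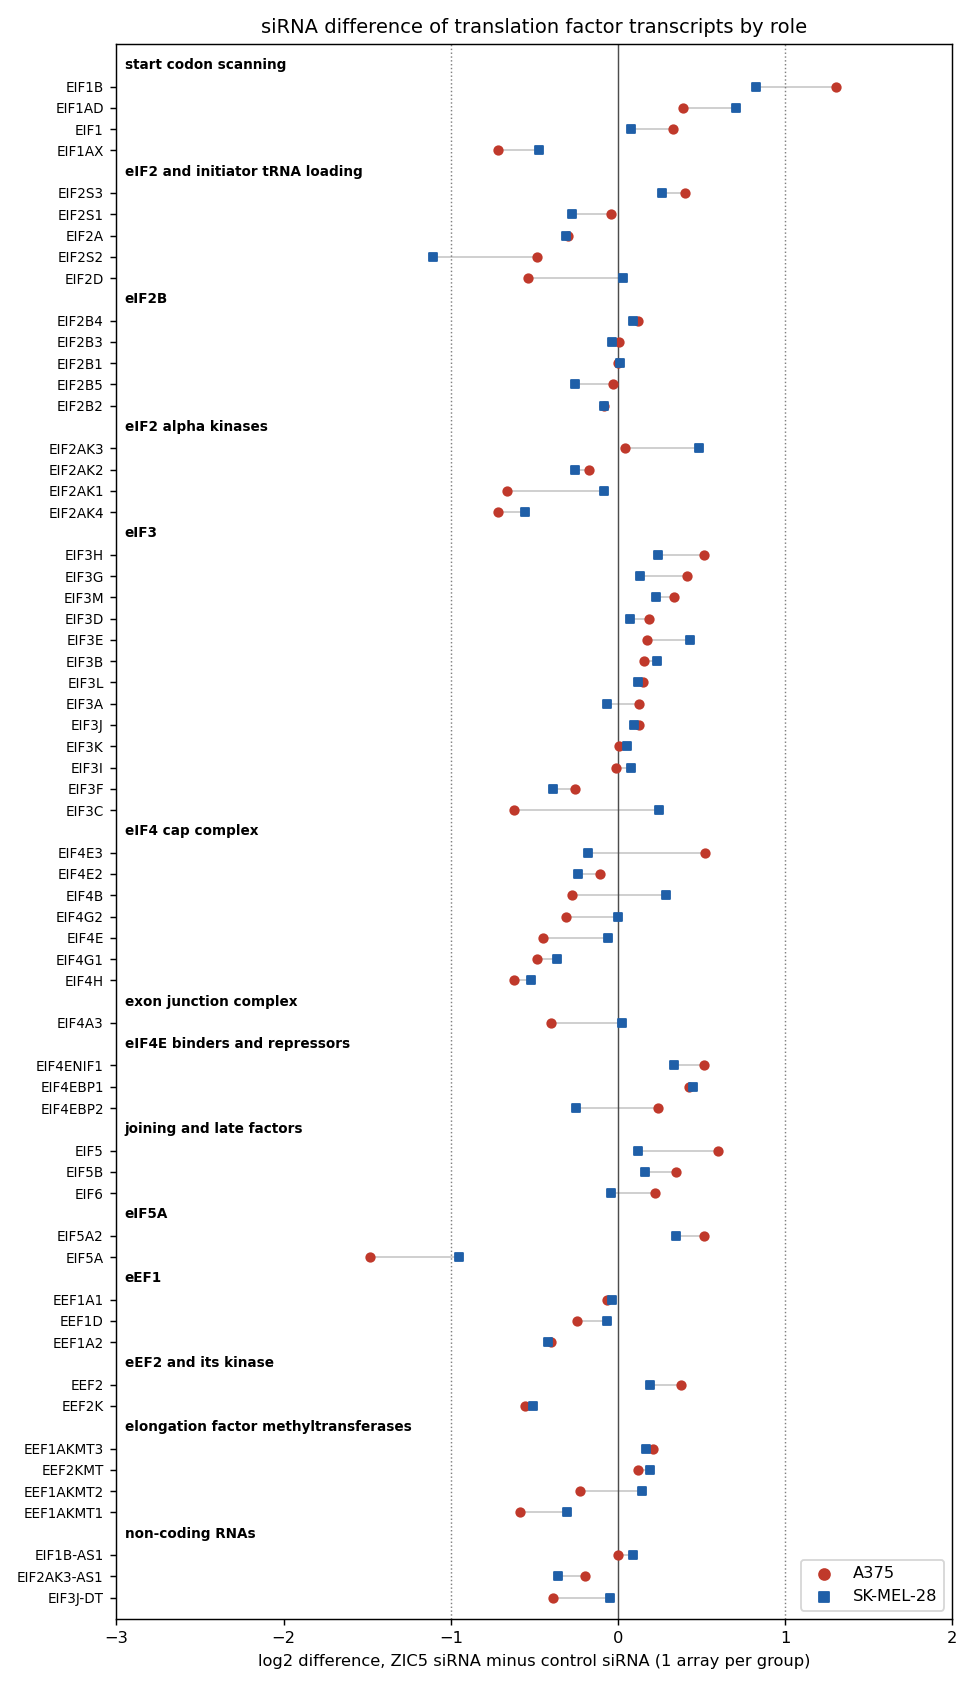
Rows are 59 members grouped by role, and the x axis is the log2 difference, ZIC5 siRNA minus control siRNA, in A375 (red circles) and SK-MEL-28 (blue squares), each from 1 array per group; dotted lines mark 2-fold. EIF1B and EIF5A pass the dotted lines in A375 and EIF2S2 in SK-MEL-28, and the 5 eIF2B subunits, on their brightest probe sets, lie between -0.26 and 0.12.

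Of 7 genes grouped with the cap complex, 4 were lower in both lines, where 32.5% of all genes were, and 0 were higher in both. The group was not tested and had medians of -0.31 in A375 and -0.18 in SK-MEL-28. It takes in relatives of the cap binder and scaffold and cofactors of the helicase, while the helicase eIF4A itself is not in it. EIF4H, which stimulates the eIF4A helicase, had 2151 with ZIC5 siRNA and 3315 with control siRNA in A375, while SK-MEL-28 had 1086 and 1558, differences of -0.62 and -0.52. The scaffold EIF4G1 differed by -0.48 and -0.36 and the cap binder EIF4E by -0.45 and -0.06. EIF4E2, a cap binder of a repressor complex, differed by -0.11 and -0.24. For EIF4E and EIF4E2, also among the 4, 2 other probe sets each were higher in SK-MEL-28, at 0.12 and 0.11 for EIF4E and 0.17 and 0.35 for EIF4E2. EIF4B, the other helicase cofactor, differed by -0.28 and 0.29. Its next brightest probe set gave 0.19 and 0.14 and its dimmest -0.42 and 0.45, so the A375 sign depended on the probe set. The EIF4G2 scaffold of cap-independent initiation differed by -0.31 in A375, with 7795 and 7789.7 on the SK-MEL-28 arrays. EIF4E3, a cap binder read near the low end of the scale, had 40.5 and 28.2 in A375 with ZIC5 and control siRNA, while SK-MEL-28 had 116 and 131. The exon junction helicase EIF4A3 differed by -0.40 and 0.02.

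Of the 3 genes that hold eIF4E away from the scaffold, 2 were higher in both lines, where 31.5% of all genes were. The group was not tested. EIF4EBP1, the mTORC1-controlled repressor, had 2327 with ZIC5 siRNA and 1735 with control siRNA in A375, while SK-MEL-28 had 1794 and 1317. Its differences, 0.42 and 0.45, were nearly equal in the lines. EIF4ENIF1, which carries eIF4E into the nucleus and to P-bodies, had 299.5 and 209.7 in A375 with ZIC5 and control siRNA, while SK-MEL-28 had 560.2 and 443, higher by 0.51 and 0.34. EIF4EBP2 differed by 0.24 and -0.25, and only 1 of its 3 probe sets at the level was higher in A375. Among the factors of subunit joining, EIF5, the GTPase activator of eIF2, was higher by 0.60 in A375 on all of 5 probe sets (0.31 to 0.87) and by 0.12 in SK-MEL-28. EIF5B, which joins the large subunit, was higher by 0.35 and 0.16, with all 6 of its probe sets higher in each line, and EIF6, which keeps the subunits apart, differed by 0.22 and -0.04.

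Among elongation factors other than EIF5A, 0 passed 2-fold. EEF1A1 had intensities of 19464 with ZIC5 siRNA and 20371 with control siRNA in A375, while SK-MEL-28 had 19772 and 20306, differences of -0.07 and -0.04. EEF1A2, the paralog normally of muscle and neurons, differed by -0.40 and -0.42, and EEF1D, of the exchange factor that recharges eEF1A, by -0.24 and -0.06. EEF2 was higher by 0.38 and 0.19 on 9016 and 6938 in A375 with ZIC5 and control siRNA, while SK-MEL-28 had 7541 and 6593. Its kinase EEF2K, which switches eEF2 off, had 390.1 with ZIC5 siRNA and 573 with control siRNA in A375, while SK-MEL-28 had 544 and 775. EEF2K was therefore lower, with differences of -0.56 and -0.51, and its second probe set gave -0.89 and -0.34. Of the 4 methyltransferases of elongation factors, EEF1AKMT1 differed by -0.59 and -0.30 and the others by -0.23 to 0.21 in A375 and 0.15 to 0.19 in SK-MEL-28.

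Reading each gene from 1 probe set mattered most in A375. In 5 members under 2-fold there, another probe set at the level passed 2-fold, all downwards: EIF2AK2 (-1.58), EEF1A1 (-1.24), EIF2S2 (-1.21), EIF1AX (-1.05) and EIF3A (-1.03). For EEF1A1 the 4 brightest probe sets lay between -0.09 and -0.01 in A375, and for EIF3A the 2 brighter ones gave 0.13 and 0.25, so the dim probe sets stood apart from the bright ones. In SK-MEL-28 this was so for 0 members. Over the 35 members with several probe sets at the level, their median SD was 0.29 for A375 and 0.14 for SK-MEL-28, against 0.25 and 0.15 over all genes. All probe sets had 1 sign in 20 of the 35 in A375 and in 23 in SK-MEL-28. EEF1A1 has many processed pseudogenes, and its probe sets may read them too.

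**Figure D4:**
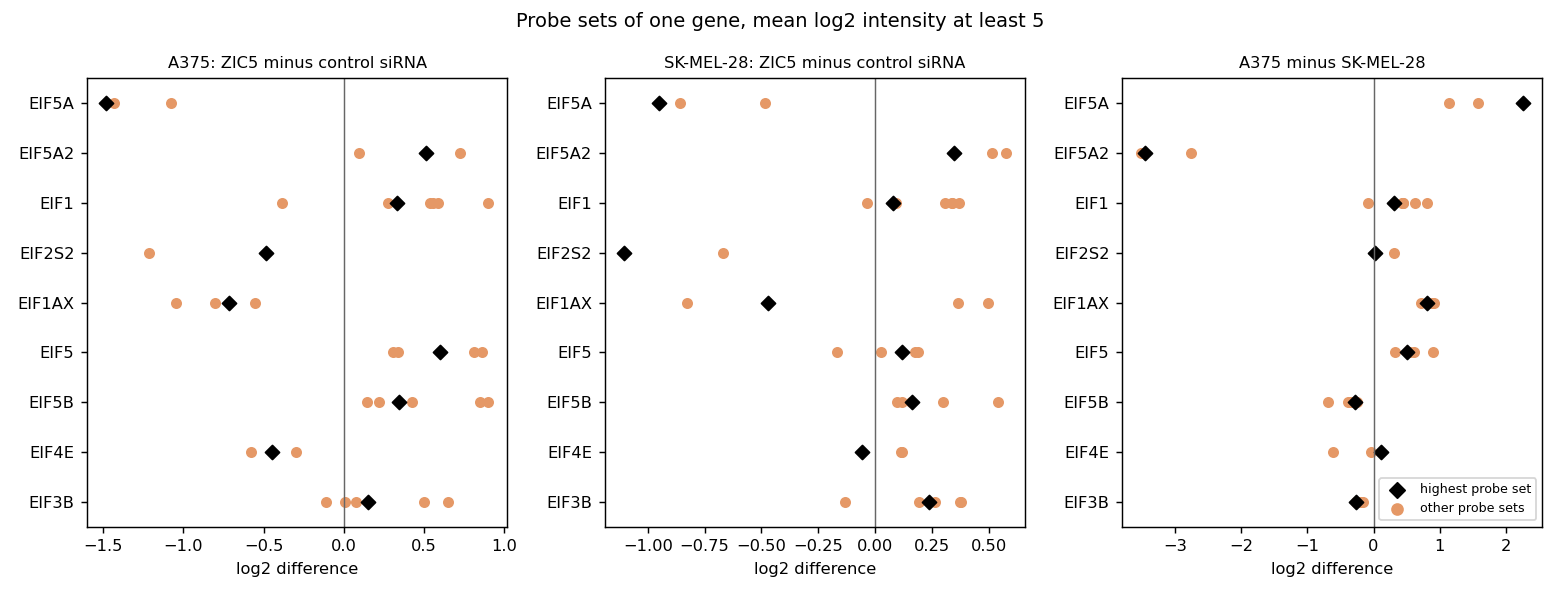
For 9 members, each point is 1 probe set whose mean log2 intensity reached 5, and the black diamond is the brightest, which was used; the x axes are log2 differences for ZIC5 minus control siRNA in each line and for A375 minus SK-MEL-28. All 3 EIF5A probe sets are negative in both siRNA panels and all 3 EIF5A2 probe sets are positive, while EIF1AX is split in SK-MEL-28.

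A limma fit with terms for siRNA and line gave the siRNA effect over both lines, with 2 arrays per transfection and the line pair as its only replication. At a limma adjusted p under 0.05 the fit called 0 of 60 members (background 0% of 13794 genes), and the lowest limma adjusted p was 0.268, for EIF5A. At an unadjusted limma p under 0.05 there were 13 members, 5 higher and 8 lower, or 21.7% against a background of 13.2% of all genes. Members are brighter than all genes in the median, and no such share over genes of like level was computed. The mean difference was -1.22 (SE 0.19) for EIF5A, 1.07 (SE 0.17, limma adjusted p 0.270) for EIF1B, -0.80 (SE 0.19) for EIF2S2 and -0.60 (SE 0.14) for EIF1AX. It was -0.57 (SE 0.13) for EIF4H, -0.64 (SE 0.17) for EIF2AK4, -0.53 (SE 0.16) for EEF2K and 0.43 (SE 0.13) for EIF4EBP1. EIF4G1, EIF3F, EIF1AD, EIF3H and EEF2 completed the 13. The labels do not say whether arrays came from separate cultures. The 1 residual degree of freedom of the fit is the disagreement between the lines in their siRNA difference. The p-values for siRNA and for line rest on that disagreement, moderated over all genes. Line dependence and array noise, which may be technical, cannot be told apart in it.

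The lines themselves differed in many of these factors. In the same fit, 23 of 60 members passed a limma adjusted p under 0.05 for the line (38.3%), against a background of 27.7% of all genes. Of these, 15 were higher in A375 (background 14.2%) and 8 lower in A375 (background 13.4%). Of the 8, 1 reached the level through SK-MEL-28 alone and so had to differ, and among the 58 members at the level in both lines 22 were called (37.9%). The gap to all genes depended on expression level: among genes with a mean log2 of 7 or more, 41.5% of members and 38.5% of all genes were called. The lines had 2 arrays each, 1 per transfection, and they differ as whole lines, including in the melanocytic genes given above, whose part in these differences was not tested. EIF5A2 was at 149 and 104 on the A375 arrays and 1541 and 1211 on the SK-MEL-28 arrays with ZIC5 and control siRNA. It was lower in A375 by a log2 difference of -3.46 (SE 0.17, limma adjusted p 0.0033), and 11.6-fold lower on the control arrays. EIF5A went the opposite way, higher in A375 by 2.26 (SE 0.19, limma adjusted p 0.0073) and 5.77-fold higher on the control arrays. All 3 probe sets of each gene had that sign, from 1.14 to 2.26 for EIF5A and from -3.51 to -2.76 for EIF5A2. Of this pair of paralogs, A375 had the higher EIF5A and SK-MEL-28 the higher EIF5A2. Both genes were picked by the size of their line difference. The sign of the line difference was the same under both siRNAs in 55 of 60 members and in 10767 of 13794 genes.

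Several eIF3 subunits also differed between the lines. EIF3M was at 8313 and 6590.4 in A375 with ZIC5 and control siRNA, while SK-MEL-28 had 3228 and 2753, higher in A375 by 1.31 (SE 0.10, limma adjusted p 0.0068). EIF3H, EIF3J, EIF3I and EIF3E were also higher in A375, by 0.97, 0.71, 0.63 and 0.48, while EIF3D, which can bind certain caps itself, was lower in A375 by -0.79 (2549 and 2246 in A375 against 4242 and 4038 in SK-MEL-28). The other 7 eIF3 genes did not pass. For EIF3E only 1 of 2 probe sets had the sign of the call, the single case among the 13 called members with several probe sets.

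**Figure D5:**
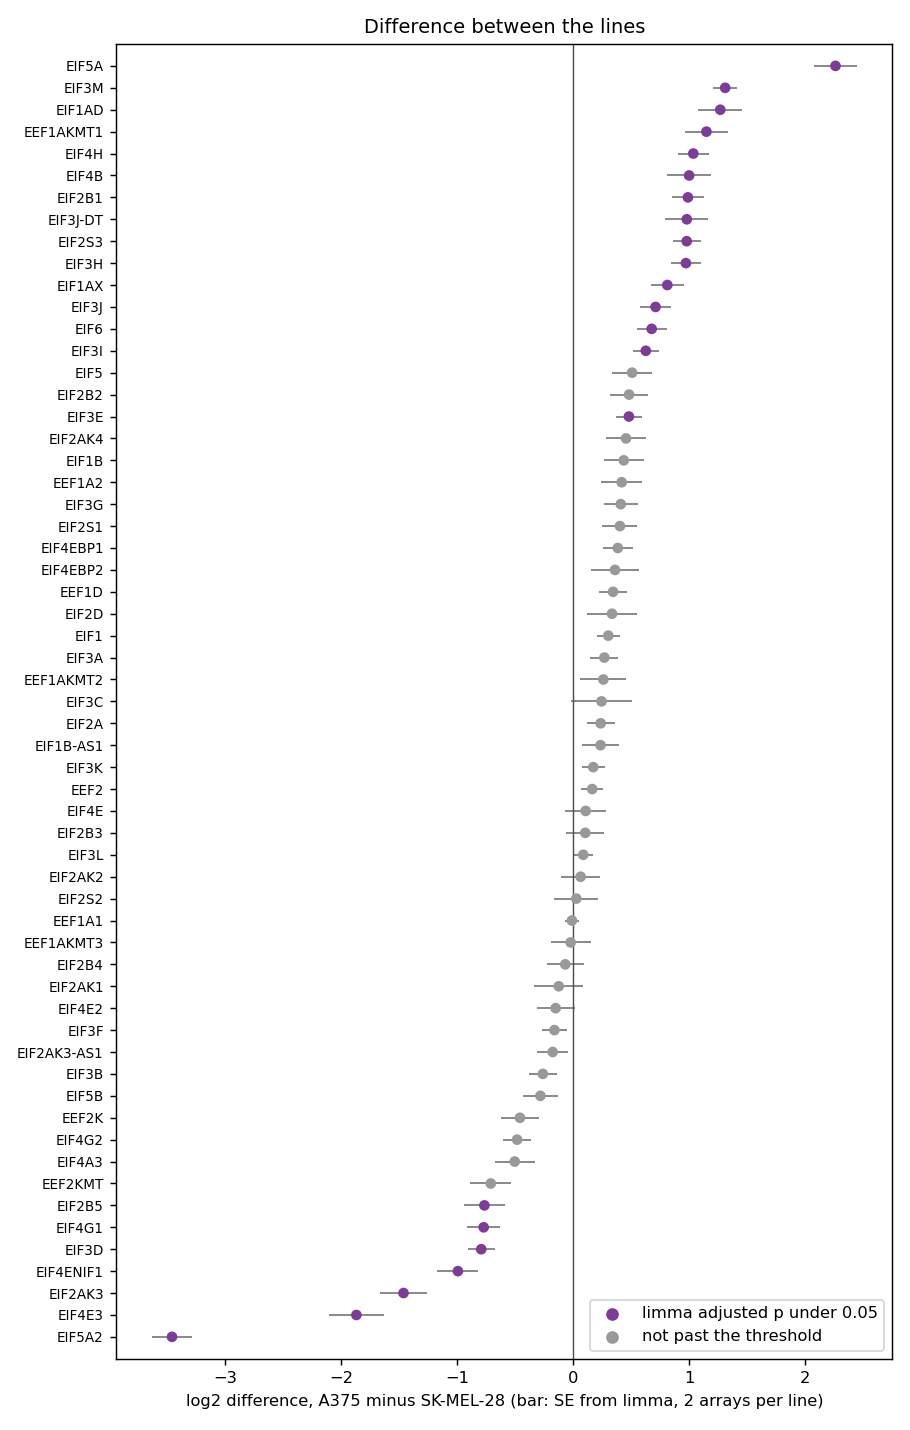
Points are the log2 difference A375 minus SK-MEL-28 over both transfections for 59 members, with bars for the SE from limma (2 arrays per line); purple points passed a limma adjusted p under 0.05. EIF5A stands at 2.26 at the top and EIF5A2 at -3.46 at the bottom, with most members between -1 and 1.

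In the eIF2 branch, EIF2AK3 (PERK) was lower in A375 by -1.46 (SE 0.20, limma adjusted p 0.0174), at 354 and 344 against 1136 and 810.5 in SK-MEL-28. The exchange factor differed by subunit: EIF2B1, its regulatory alpha subunit, was higher in A375 by 0.99, EIF2B5 was lower by -0.76, and the other 3 subunits did not pass. EIF2S3 was higher in A375 by 0.98. In the scanning group EIF1AD was higher in A375 by 1.27 (508 and 389 against 235 and 144) and EIF1AX by 0.81, a call that was lost with the mean over its probe sets (0.83, limma adjusted p 0.0608). Among cap factors EIF4H (2151 and 3315 in A375 against 1086 and 1558 in SK-MEL-28) and EIF4B (2625 and 3176 against 1593 and 1306) were higher in A375 by 1.04 and 1.0. EIF4G1 was lower in A375 by -0.77, EIF4ENIF1 by -0.99 and EIF4E3 by -1.87, the last at 40.5 and 28.2 in A375, near the low end of the scale. EIF6, EEF1AKMT1 and EIF3J-DT were higher in A375 by 0.68, 1.15 and 0.98. EEF1A1 did not differ beyond its error, at -0.01 (SE 0.06), and EIF2S2 lay at 0.03 (SE 0.19).

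Other genes of translation control, 60 of 64 listed, were counted for context. Past 2-fold were 7 higher and 2 lower in A375 and 4 higher and 1 lower in SK-MEL-28. The shares over all genes, higher and lower, were 3.89% and 5.05% for A375 and 0.776% and 2.12% for SK-MEL-28. The limma fit called 0 of them at an adjusted p under 0.05 and 12 had an unadjusted limma p under 0.05, as did 13.2% of all genes. Earlier results of these arrays were known when the lists were made, so the counts are a description. The 5 listed genes of the integrated stress response, ATF4, DDIT3, ATF5, CEBPB and TRIB3, had medians of 1.0 and 0.72. TRIB3, which is no transcription factor, was at 1.13 and 1.34, ATF5 at -0.45 and -0.42 and CEBPB at 0.51 and -0.02. Among 12 genes of mTORC1 and its inputs, 9 were higher in both lines (31.5% of all genes) and 0 lower in both (32.5%). That group was not tested. The mTORC1 inhibitor SESN2 was at 3.32 and 1.41, the inhibitor DDIT4 at 1.60 and 1.15, and MTOR at 0.08 and 0.09. MKNK2, a kinase of eIF4E, differed by 1.08 and 0.51, and the termination factor GSPT1 by -2.18 and -2.59. DPH6, an enzyme of the diphthamide on eEF2, differed by -1.10 and -0.36. The 9 mitochondrial translation factors had medians of 0.06 and 0.14 with 0 past 2-fold.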

How the data were processed

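The deposited values are linear-scale intensities, 1 for each probe set on an array. The submitters' processing notes name RMA and Affymetrix Expression Console, and versions are not given in the sources used here. Log2 of the deposited values was taken here. Probe sets were named by the platform annotation of the data, 41091 of 54613 with 1 gene, 1801 with several and 11721 with none in that table. Entrez IDs of 41037 matched RefSeq (GRCh38.p14), and 0 symbols changed. Promoter windows are from RefSeq. Arrays carry no counts, so precision is limited by their number. The fit was limma 3.58.1 in R 4.3.3 (lmFit, eBayes with trend) with siRNA and line terms, 1 residual degree of freedom and Benjamini-Hochberg adjustment over 13794 genes, tested on simulated data. No interaction could be fitted, so line dependence of the siRNA difference was not tested.

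Members, role groups and lists were chosen with earlier results of these data known. Described in full were members past 2-fold in a line, the 6 highest and 6 lowest by the smaller same-sign difference, and the 6 highest and 6 lowest by line; others are named within their role group. Alternatives were the level minimum, a floor, other normalizations, other probe set rules and other eBayes settings.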

Additional observations from a re-analysis of the deposited data

Results flagged for a closer look

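With ZIC5 siRNA, 2 members differed in opposite directions in the lines by more than the typical spread among probe sets of 1 member (median SD 0.29 for A375 and 0.14 for SK-MEL-28), and the difference between the lines was not tested. EIF3C had -0.62 for A375 and 0.25 for SK-MEL-28, on 1 probe set with intensities of 40.5 to 64.9. The 3 bright probe sets shared with EIF3CL were lower in both lines. EIF4E3 had 0.52 for A375 and -0.18 for SK-MEL-28, and its other probe set at the level was lower in both lines, at -0.35 for A375 and -0.80 for SK-MEL-28.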

How the results depend on the processing

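The counts of members past 2-fold, 1 higher and 1 lower in A375 and 0 higher and 1 lower in SK-MEL-28, depended on the probe set rule. With probe sets without _s_at or _x_at endings, 5 members were at least 2-fold lower in A375 (EEF1A1, EIF2AK2, EIF2S2 and EIF3A, and EIF5A, which has no such probe set and kept its value) and 0 in SK-MEL-28, and with the mean over the probe sets of a gene 0 were 2-fold lower in SK-MEL-28, where EIF2S2 was at -0.89. The 23 line calls became between 21 and 25 under the other filters, normalizations, probe set rules and eBayes settings, with 19 to 23 of the 23 called again. Members called ran from 33.9% to 41.7%, against 17.3% to 38.5% of all genes, and lay closest at a mean log2 of at least 7 (41.5% against 38.5%). On the control arrays alone 12 members (20%) were past 2-fold, against 22.2% of all genes, a size rule with no test. EIF1AX lost its line call with the mean over probe sets (0.83, limma adjusted p 0.0608). Its SK-MEL-28 siRNA difference, -0.47, became -0.11 with that mean and -0.83 without _s_at or _x_at endings. With the mean over probe sets, SK-MEL-28 differences went from 0.70 to 0.47 for EIF1AD and from -0.95 to -0.76 for EIF5A. EIF4E3 went from 0.52 to 0.09 in A375 and from -0.18 to -0.49 in SK-MEL-28. These differences kept their sign. The limma fit called 0 members for the siRNA under every alternative run, with 9 to 14 members at an unadjusted p under 0.05 and the limma adjusted p of EIF5A from 0.113 to 0.373. Medians of the members moved by less than the spread between probe sets. With the line as its block, the fit pairs ZIC5 and control siRNA by line. No pairing of replicates within a line was possible because each group has 1 array and the labels give no replicate number. Leaving out an array leaves the fit no residual degree of freedom.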

Other observations

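The windows of EIF5A2 and EIF1B, transcripts that were higher with ZIC5 siRNA in both lines, hold the E-box CACGTG, a motif of MYC and MITF family factors that was picked after the windows were seen. Among members, 13 of 47 genes with a window (27.7%) hold it, against 12.4% of 11046 analysed genes and 7.26% of all windows, with EIF4H, EEF2K and EIF4G1 among them, which were lower with ZIC5 siRNA in both lines. Genes with more windows have more chances of a match, and 0 of the 6 windows of EIF5A hold one. A match describes these letters and no binding. The stretches below, 5′ to 3′ on the strand of the gene (RefSeq, GRCh38.p14), show the motif in capitals, at 2 places in EIF5A2 and 1 in EIF1B.
EIF5A2 (chr3:170908764-170908854, minus strand): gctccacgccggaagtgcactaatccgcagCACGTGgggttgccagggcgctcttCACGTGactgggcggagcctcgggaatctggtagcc
EIF1B (chr3:40309623-40309688, plus strand): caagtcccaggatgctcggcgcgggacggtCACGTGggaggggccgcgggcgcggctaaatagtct
The element TGATGNAA of ATF4 with C/EBP factors, read on both strands, stood in 1 of 47 genes (2.13%), EIF4E3, against 3% of analysed genes. Of the 16 probe sets that list a factor beside other genes, 15 were at the level, and their siRNA differences ran from -1.27 to 0.48 in A375 and from -0.38 to 0.34 in SK-MEL-28.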
